A study of Mus musculus with 12 samples.

Results

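The data concern 41 genes of DNA replication, chosen by their known function and matched by symbol among the 52535 gene entries of each count table. They comprise 15 genes of origin licensing, 6 of helicase activation, 17 of the replication fork, 2 of ribonucleotide reductase and 1 regulator, E2f1. All 41 passed the filter on low counts, which left 14946 genes to be tested. Expression was measured by sequencing of rRNA-depleted total RNA from E14, a mouse embryonic stem (ES) cell line, in 6 libraries. There were 2 libraries of a first clone labelled as Bcat1 knockout (clone 1), 2 of a second such clone (clone 2) and 2 of wild type (WT). All 3 groups were grown with serum, LIF and 2i, a pair of kinase inhibitors that keep ES cells in a naive state. Each knockout group is 1 clone, so a change private to a clone cannot be told apart from an effect of the genotype within it. How the gene was disrupted is not given in the sources used here, and 6 more samples, from a time course, were left out.

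A replication origin is prepared in G1, when the origin recognition complex (ORC), Cdc6 and Cdt1 load the Mcm2-7 helicase ring onto DNA, a step known as licensing. Binding of Cdc45 and the GINS complex turns the ring into an active helicase, and polymerases with the sliding clamp PCNA then copy both strands. Ribonucleotide reductase supplies the deoxynucleotides, and E2F1 is a transcription factor known to activate many genes of this set at entry into S phase. Mouse ES cells are known for a short G1 phase and a large share of cells in S phase.

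The gene counts of the 6 libraries totalled 11976149 to 13923262, and the 41 genes took 0.840% to 0.883% of them in the 4 libraries labelled knockout and 0.879% and 0.893% in the WT libraries. Levels are given as CPM (reads of a gene as a share of the library, after TMM scaling) and differences as log2 fold changes with their standard error (SE). Whether the 2 replicates of a group were grown as separate cultures is not stated, so the tests weigh differences against a spread that may be technical. In bulk RNA, fewer cells in S phase and less RNA of a gene per cell cannot be told apart. Reads that fitted more than 1 gene were 6.96% of all reads in clone 1 replicate 1, the lowest share, and up to 9.10% in the others. Bcat1, the targeted gene, stood at 617, 662, 583 and 579 CPM in the libraries labelled knockout and at 602 and 614 CPM in WT (log2 fold change 0.01 ± 0.08), so RNA of the whole gene gave no check of the labels. All 8 ES cell markers were tested and none was called over both clones. In clone 1, 3 were lower (37.5%, where 9.53% of all tested genes were), and in clone 2, 2 were (25%, where 7.81% were). Sox2 was lower in each, at -0.32 ± 0.08 and -0.28 ± 0.08, and no marker was called higher in either. The summed levels of the 8 markers were 5599 to 5859 CPM in the libraries labelled knockout and 6000 and 6130 CPM in WT. Of 9 feeder fibroblast markers, Lum, Dcn and Postn were at 0 in every library, and the summed levels were 21.5 to 39.2 CPM in the libraries labelled knockout against 24.1 and 24.9 CPM in WT. Of the 5 tested, Col1a2, a collagen gene, was called higher over both clones, at 1.74, 1.15, 0.929 and 1.42 CPM in the libraries labelled knockout against 0 and 0.0739 CPM in WT (adjusted p = 0.012), a call lost without WT replicate 1 (0.164) or WT replicate 2 (0.0975). Col1a2 was 1 of the 5 (20%), where 6.36% of all tested genes were called. In clone 1, 2 were higher (40%, where 12.4% of all tested genes were), Col1a2 and Thy1 (0.94 ± 0.30). In clone 2 only Col1a2 was called higher (20%, against 10.1%), Thy1 stood at -0.94 ± 0.35 and 3 of the 5 were below 0. Between the clones, Thy1 (-1.88 ± 0.33) and Pdgfrb (-0.48 ± 0.13) were lower in clone 2 (40%, where 7.71% of all tested genes were). The summed levels of 10 markers of differentiated cells were 44.8 to 66.7 CPM in the libraries labelled knockout against 79.5 and 84.2 CPM in WT. Of the 6 tested, Cdx2, a trophectoderm and gut factor, was called lower over both clones, at 2.30, 1.46, 6.33 and 3.48 CPM in the libraries labelled knockout against 28.9 and 22.3 CPM in WT (-2.92 ± 0.40, adjusted p = 0.00355), a call lost without WT replicate 1 (0.0833). Cdx2 was 1 of the 6 (16.7%), where 6.36% of all tested genes were called. In clone 1, 2 were called (33.3%, against 21.9%), Cdx2 lower and Gata4 higher (1.43 ± 0.40). In clone 2, 3 were lower (50%, where 7.81% of all tested genes were), Cdx2, T (-1.02 ± 0.23) and Nes (-0.55 ± 0.13). The part of these lists in the results below was not tested.

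Most replication genes showed small differences between the libraries labelled knockout and WT. Rrm2 and Orc5 fell and E2f1 rose, and the other 38 did not pass the test. That is 3 of 41 genes, or 7.32%, where 6.36% of all tested genes were called by edgeR's quasi-likelihood test at an adjusted p under 0.05. Without either WT library no member was called, without either clone 2 library 1 was, and with a required fold of at least 1.2 none was either. At an unadjusted p under 0.05 there were 14 of the 41, beside 3433 of all 14946 tested genes. The median log2 fold change of the 41 genes was -0.09, with 29 of them (70.7%) below 0, against a median of 0.00 and 49.4% below 0 over all tested genes. Under upper quartile scaling 25 were below 0, with a median of -0.06 against 0.03 over all tested genes. The called genes lie on chromosome 12, 24708241 to 24714146 (Rrm2, plus strand), chromosome 5, 22486485 to 22550429 (Orc5, minus) and chromosome 2, 154559407 to 154569892 (E2f1, minus), in GENCODE M21 on GRCm38. The 38 uncalled genes ran from -0.36 for Fen1 to 0.31 for Pola1. Apart from Fen1, the lowest bound of their 95% intervals was -0.62, for Rpa3, and the highest was 0.57, for Pola1. All 4 libraries labelled knockout lay below both WT libraries for 13 genes (31.7%) and above both for 3, Pole, Rfc3 and E2f1 (7.32%), while 25 overlapped. Over all tested genes these shares were 16.7% below and 18.3% above, 35.0% in all.

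**Figure D1:**
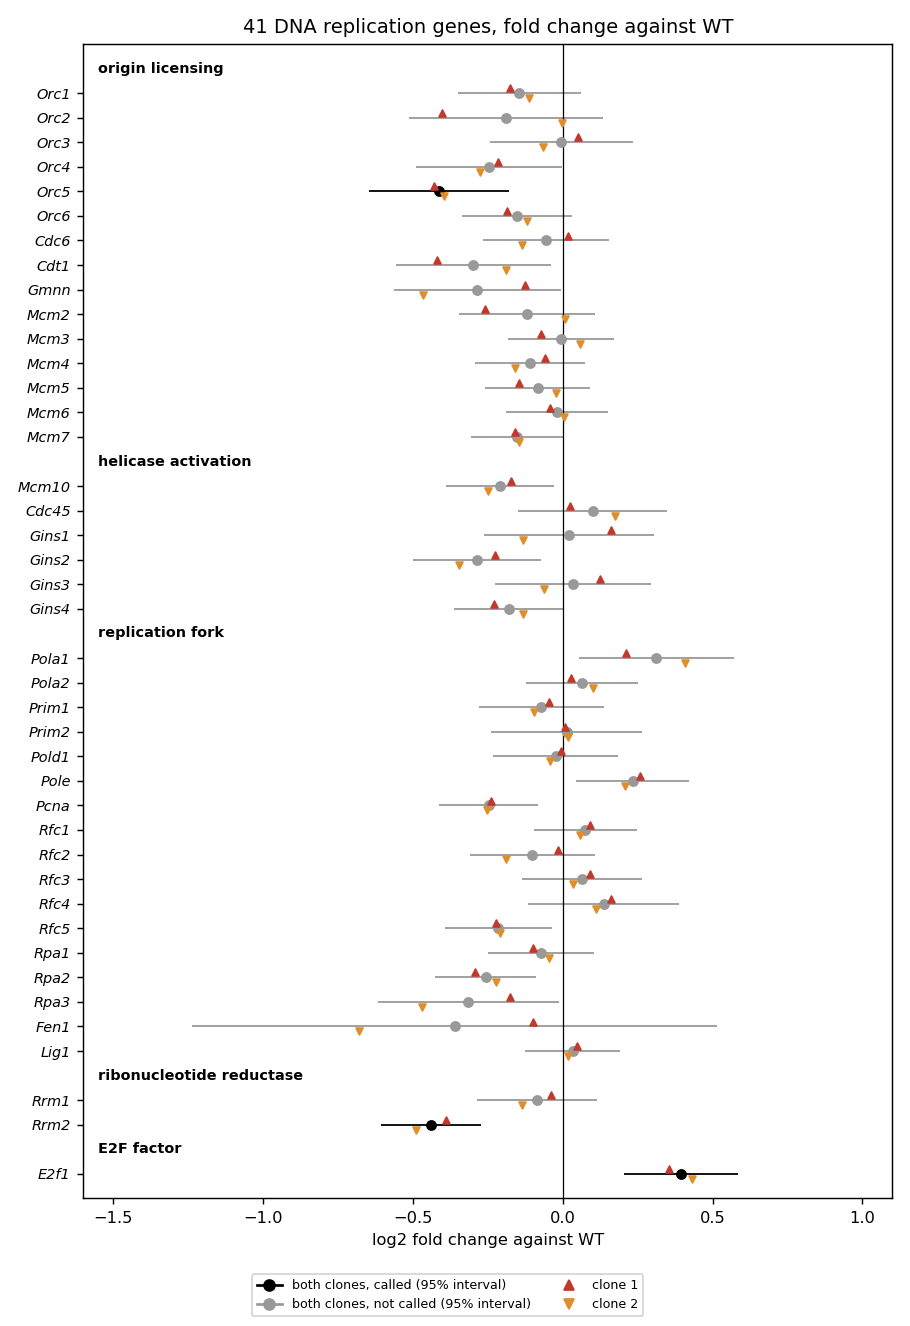
Log2 fold change against WT (x axis) of each of the 41 genes, grouped by role. Circles with 95% intervals give both clones together (4 libraries against 2), black where the test was passed, and triangles give clone 1 and clone 2. Orc5 and Rrm2 sit left of 0 and E2f1 right of 0 in both clones. All 15 circles of origin licensing are below 0 (12 under upper quartile scaling), as are 13 of their triangles in clone 1 and 12 in clone 2.

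Ribonucleotide reductase differed in 1 of its subunits. Rrm2, the small subunit that carries the catalytic radical and is made in S phase, had 321 and 320 CPM in clone 1 and 301 and 297 CPM in clone 2, against 422 and 418 CPM in WT. The groups did not overlap, and the clones lay closer to each other than to WT. Rrm2 fell by 0.44 ± 0.07 on the log2 scale (95% interval -0.61 to -0.27), a level 26.3% lower, with an adjusted p of 0.00951 in edgeR. In the clone contrasts it fell by 0.39 ± 0.07 in clone 1 (adjusted p = 0.00112) and by 0.49 ± 0.07 in clone 2 (adjusted p = 1.8e-04). The call over both clones was lost without WT replicate 1 (adjusted p = 0.154) or WT replicate 2 (0.128). Rrm1, the large subunit with the substrate and regulatory sites, had 248 and 217 CPM in clone 1 and 221 and 214 CPM in clone 2, against 251 and 227 CPM in WT. These ranges overlapped, and its log2 fold change of -0.09 ± 0.09 (-0.29 to 0.11) did not pass the test. Rrm2b, the other small subunit, known to be induced by p53, was looked up after its values were seen. It had 8.88 and 6.83 CPM in clone 1 and 6.76 and 8.38 CPM in clone 2, against 4.63 and 3.69 CPM in WT. Its log2 fold change of 0.89 ± 0.23 did not pass over both clones (adjusted p = 0.0521), though each clone contrast did, at 0.92 ± 0.24 (0.011) and 0.87 ± 0.24 (0.0191). The clone 1 call was lost without clone 1 replicate 1 (0.0583) or WT replicate 2 (0.116), and the clone 2 call without clone 2 replicate 2 (0.161), WT replicate 1 (0.0548) or WT replicate 2 (0.159).

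E2f1 moved in the opposite direction to Rrm2. It had 121 and 130 CPM in clone 1 and 131 and 134 CPM in clone 2, against 93.8 and 103 CPM in WT, with no overlap. It rose by 0.39 ± 0.09 (95% interval 0.20 to 0.58), a level 31.3% higher, with an adjusted p of 0.026 in edgeR. The clone contrasts gave 0.36 ± 0.09 in clone 1 (adjusted p = 0.00734) and 0.43 ± 0.09 in clone 2 (adjusted p = 0.00229). The call over both clones was lost without clone 2 replicate 1 (0.0637), clone 2 replicate 2 (0.0608), WT replicate 1 (0.327) or WT replicate 2 (0.16). Without WT replicate 1 the calls in clone 1 (0.125) and in clone 2 (0.0659) were lost too.

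**Figure D2:**
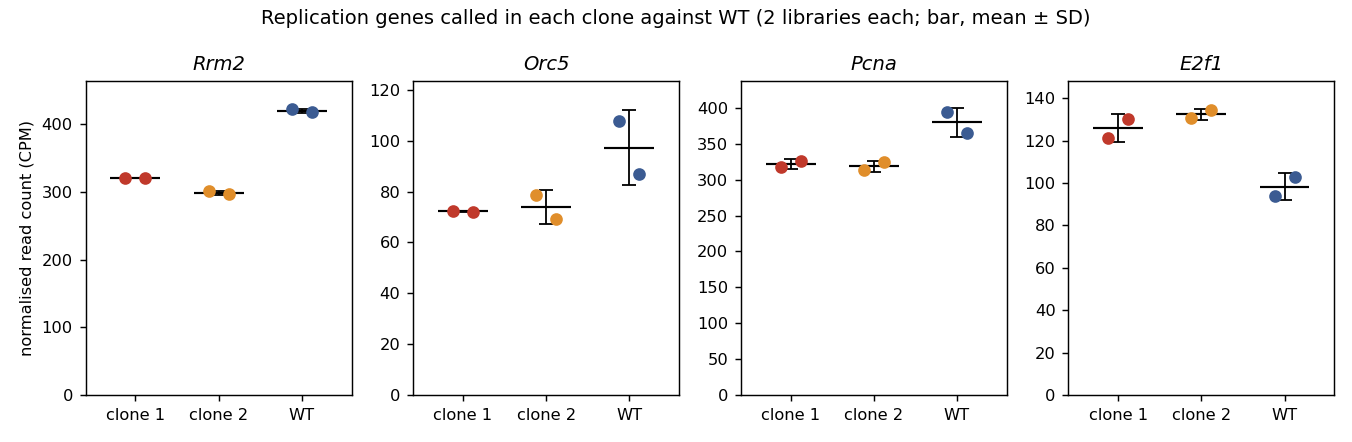
Normalised read count (CPM, y axis from 0) of the 4 genes called with the same sign in each clone against WT, with 1 point per library and bars for mean ± SD (n = 2). Rrm2, Orc5 and Pcna lie lower in both clones than in WT, and E2f1 lies higher.

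In origin licensing 1 of 15 genes, Orc5, fell in the comparison of genotypes and none rose. That is 6.67%, where 6.36% of all tested genes were called, 4.25% higher and 2.11% lower. All 15 fitted values over both clones were below 0, with a median of -0.14. Under upper quartile scaling, though, Orc3, Mcm3 and Mcm6 turned positive and 12 stayed below 0. By clone, 13 were below 0 in clone 1 (Orc3 and Cdc6 above) and 12 in clone 2 (Mcm2, Mcm3 and Mcm6 above). Orc5, a subunit of the ORC ring, had 72.5 and 72.1 CPM in clone 1 and 78.7 and 69.3 CPM in clone 2, against 108 and 86.9 CPM in WT. The WT libraries differed from each other more than the 4 libraries labelled knockout did, but the groups did not overlap. Orc5 fell by 0.41 ± 0.10 (-0.65 to -0.18) with an adjusted p of 0.0484 in edgeR, by 0.43 ± 0.11 in clone 1 (0.00902) and by 0.40 ± 0.11 in clone 2 (0.0173). Its call over both clones was lost under 8 of 14 alternatives, among them upper quartile scaling (0.0582) and each library left out, with adjusted p of 0.0511 without clone 2 replicate 1 to 0.486 without WT replicate 1. The clone 1 call was lost without WT replicate 1 (0.198), and the clone 2 call without clone 2 replicate 2 (0.214) or WT replicate 1 (0.308).

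The other ORC subunits did not pass the test over both clones. Orc1, the largest subunit and an ATPase, had 96.7 and 87.7 CPM in clone 1 and 103 and 89.4 CPM in clone 2, against 103 and 106 CPM in WT, and its log2 fold change was -0.14 ± 0.09. Orc4 and Orc6 lay lower in all 4 libraries labelled knockout than in both WT libraries, at -0.25 ± 0.11 and -0.15 ± 0.08, and Orc3 stood at -0.01 ± 0.11. Cdc6, the ATPase that joins ORC to load the helicase, had 126 and 117 CPM in clone 1 and 116 and 103 CPM in clone 2, against 119 and 122 CPM in WT. Its ranges overlapped, and its log2 fold change was -0.06 ± 0.09.

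Cdt1, which brings the Mcm2-7 ring to ORC, had 188 and 233 CPM in clone 1 and 237 and 256 CPM in clone 2, against 270 and 292 CPM in WT. All 4 libraries lay below WT, with clone 1 replicate 1 lowest. Over both clones the log2 fold change of -0.30 ± 0.12 did not pass (adjusted p = 0.161). In clone 1 Cdt1 fell by 0.42 ± 0.10 (adjusted p = 0.00485), a call lost without WT replicate 2 (0.0849), and in clone 2 the value was -0.19 ± 0.10 (0.195). Gmnn encodes geminin, the protein that binds Cdt1 and blocks a second round of licensing. It had 126 and 114 CPM in clone 1 and 91.0 and 98.8 CPM in clone 2, against 134 and 128 CPM in WT, again with no overlap between the genotypes. Over both clones its log2 fold change was -0.29 ± 0.12 (adjusted p = 0.207). Gmnn fell by 0.47 ± 0.09 in clone 2 (adjusted p = 0.00151), and in clone 1 its value was -0.13 ± 0.09 (0.336).

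The 6 genes of the helicase ring, Mcm2 to Mcm7, were not called over both clones, with log2 fold changes of -0.15 for Mcm7 to -0.01 for Mcm3 and a median of -0.10. The medians were -0.11 in clone 1 and -0.01 in clone 2. Per kilobase of exon, Mcm3 and Mcm5 had the highest levels of all 41 genes, at 193 ± 10.7 and 177 ± 9.86 CPM per kilobase in the libraries labelled knockout (SD, n = 4) and 194 ± 7.13 and 187 ± 2.18 in WT (SD, n = 2). Mcm2 had 624 and 665 CPM in clone 1 and 784 and 767 CPM in clone 2, against 773 and 769 CPM in WT. Clone 1 stood apart, and clone 2 and WT overlapped. Mcm2 fell by 0.26 ± 0.07 in clone 1 (adjusted p = 0.0172), a call lost without WT replicate 1 (0.104) or WT replicate 2 (0.0931), and in clone 2 its value was 0.01 ± 0.07. Mcm7 lay at 578 to 602 CPM in the libraries labelled knockout and at 659 and 660 CPM in WT, without overlap, and did not pass (-0.15 ± 0.07, adjusted p = 0.225).

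None of the 6 helicase activation genes passed the test over both clones, where 4.25% of all tested genes were called higher and 2.11% lower. Mcm10, which acts in activation of the loaded helicase, Gins2 and Gins4 lay below WT in all 4 libraries labelled knockout, with log2 fold changes of -0.21 ± 0.08, -0.29 ± 0.10 and -0.18 ± 0.08. Gins1 and Gins3, the other GINS subunits, stood at 0.02 ± 0.13 and 0.03 ± 0.12. Cdc45 had 84.9 and 73.3 CPM in clone 1 and 93.1 and 82.6 CPM in clone 2, against 83.2 and 72.6 CPM in WT. These libraries overlapped, and its log2 fold change was 0.10 ± 0.11. In clone 2 Mcm10 fell by 0.25 ± 0.08 (adjusted p = 0.0407) and Gins2 by 0.35 ± 0.10 (0.0201). Both calls were lost when either clone 2 library or either WT library was left out, with adjusted p of 0.103 to 0.378 for Mcm10 and 0.0966 to 0.159 for Gins2. Of the exon bases of Gins2, 67.3% are shared with Gse1 on the opposite strand, and the strand setting of the counting is not given in the sources used here.

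None of the 17 fork genes passed over both clones, where 6.36% of all tested genes did. The values of the 17 lay on both sides of 0, with a median of -0.02. Pcna, the sliding clamp, had 318 and 327 CPM in clone 1 and 313 and 324 CPM in clone 2, against 395 and 366 CPM in WT. The 4 libraries labelled knockout lay within a narrow band below both WT libraries. Its log2 fold change of -0.25 ± 0.07 (-0.41 to -0.08) just missed the threshold over both clones (adjusted p = 0.0791). Pcna fell by 0.24 ± 0.08 in clone 1 (adjusted p = 0.0347) and by 0.25 ± 0.08 in clone 2 (0.0299). The clone 1 call was lost without either clone 2 library (0.076 and 0.0791) or either WT library (0.263 and 0.073), and the clone 2 call without either clone 2 library (0.247 and 0.155) or either WT library (0.266 and 0.0729). Reads of Pcna may be split with its near-identical copy Pcna-ps2, which took 21.1% to 24.4% of their summed level. The sum averaged 417 CPM in the libraries labelled knockout and 491 CPM in WT, a log2 ratio of -0.23.

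Among the polymerases, Pola1, the catalytic subunit of the polymerase that starts each strand, had 133 and 106 CPM in clone 1 and 140 and 135 CPM in clone 2, against 106 and 101 CPM in WT. Only clone 1 replicate 2 lay within the WT range. Over both clones the log2 fold change of 0.31 ± 0.12 did not pass (adjusted p = 0.144), but without clone 1 replicate 2 it did (0.0272). Pola1 rose by 0.41 ± 0.10 in clone 2 (adjusted p = 0.00899), a call lost without clone 2 replicate 1 (0.101), WT replicate 1 (0.0636) or WT replicate 2 (0.12). Pole, the catalytic subunit of the leading strand polymerase, had 210 and 186 CPM in clone 1 and 196 and 186 CPM in clone 2, against 160 and 170 CPM in WT. It lay higher in all 4 libraries labelled knockout, and rose by 0.26 ± 0.09 in clone 1 (adjusted p = 0.0393). That call was lost without clone 1 replicate 1 (0.15), clone 2 replicate 1 (0.09), clone 2 replicate 2 (0.0828), WT replicate 1 (0.276) or WT replicate 2 (0.114), and in clone 2 the value was 0.21 ± 0.09 (0.107). Pola2, both primase subunits (Prim1 and Prim2) and Pold1, the catalytic subunit of the lagging strand polymerase, lay between -0.07 and 0.06 over both clones.

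The clamp loader and the single-strand binding protein RPA were uneven among their subunits. Rfc1, the large clamp loader subunit, had 202 and 193 CPM in clone 1 and 200 and 187 CPM in clone 2, against 190 and 182 CPM in WT, and overlapped between genotypes (0.07 ± 0.08). Rfc2, Rfc3 and Rfc4 lay at -0.10 to 0.14 and Rfc5 at -0.22 ± 0.08, all uncalled. Rpa1, the large RPA subunit that holds most of the DNA contacts, had 325 and 298 CPM in clone 1 and 334 and 313 CPM in clone 2, against 343 and 324 CPM in WT, also with overlap (-0.07 ± 0.08). Rpa2 fell by 0.29 ± 0.08 in clone 1 (adjusted p = 0.0155), a call lost without WT replicate 1 (0.139) or WT replicate 2 (0.0629), and its value in clone 2 was -0.22 ± 0.08 (0.0657). Rpa3 fell by 0.47 ± 0.12 in clone 2 (adjusted p = 0.0109), a call lost without clone 2 replicate 1 (0.071), clone 2 replicate 2 (0.09) or WT replicate 1 (0.196), and its value in clone 1 was -0.18 ± 0.12 (0.311). Lig1, the ligase that seals Okazaki fragments, stood at 0.03 ± 0.07. Fen1, the flap nuclease of the same step, had 1.82, 4.14, 1.69 and 2.29 CPM in the libraries labelled knockout and 3.16 and 3.25 CPM in WT, from 20 to 54 counts a library. Of its exon bases 84.2% are shared with Tmem258 and Gm10143 on the opposite strand, so its count may miss reads that fitted more than 1 gene, and its log2 fold change of -0.36 ± 0.39 has a wide interval (-1.24 to 0.51).

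**Figure D3:**
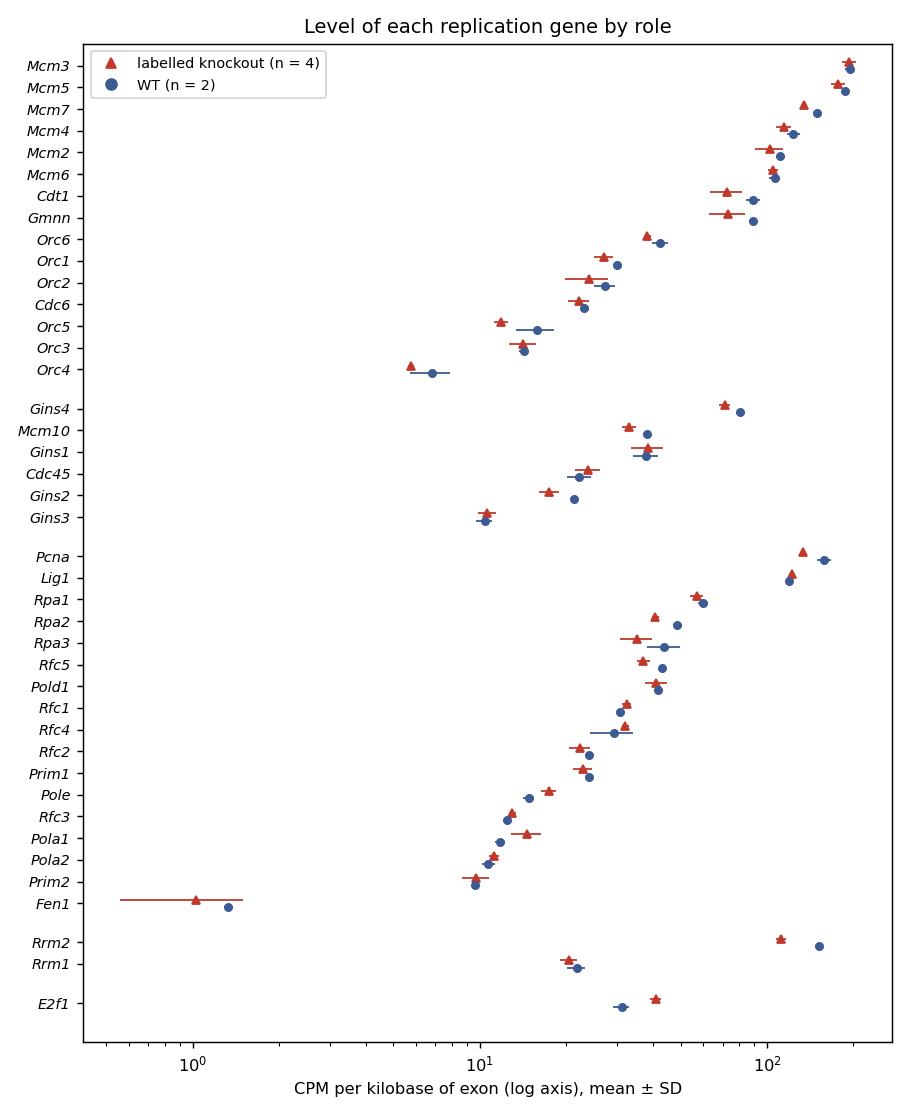
Level of each gene in CPM per kilobase of exon (log x axis), mean ± SD of the libraries labelled knockout (triangles, n = 4) and WT (circles, n = 2), ordered within each role by WT level. Mcm2 to Mcm7, Pcna, Lig1 and Rrm2 are the highest in WT, and Fen1 is the lowest at 1.03 in the libraries labelled knockout and 1.32 in WT.

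Taken clone by clone, 9 of the 41 genes (22.0%) were called in each contrast with WT, where 21.9% of all tested genes were called in clone 1 (12.4% higher and 9.53% lower) and 17.9% in clone 2 (10.1% higher and 7.81% lower). Both contrasts share the WT libraries. These shares of all tested genes belong to the full fit. For refits with 1 library left out such shares are not given, here or between the clones. In clone 1 the 2 higher genes were Pole and E2f1, and the 7 lower ones were Orc2, Orc5, Cdt1, Mcm2, Pcna, Rpa2 and Rrm2. In clone 2 the 2 higher genes were Pola1 and E2f1, and the 7 lower ones were Orc5, Gmnn, Mcm10, Gins2, Pcna, Rpa3 and Rrm2. Leaving out 1 library moved these counts to between 2 and 13 in clone 1, the lowest being 2 without WT replicate 1 (and 4 without the other WT library), and to between 2 and 16 in clone 2. The clone 2 count was 16 without either clone 1 library, 4 without either clone 2 library, 2 without WT replicate 1 and 5 without the other WT library.

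Between the clones, 3 of 41 genes (7.32%) differed, where 14.3% of all tested genes did (6.62% higher and 7.71% lower in clone 2). Orc2 and Mcm2 were higher in clone 2 and Gmnn was lower, and the 3 genes all belong to origin licensing. Orc2, an ORC subunit, had 106 and 103 CPM in clone 2 and 86.3 and 72.9 CPM in clone 1, with 111 and 98.8 CPM in WT. Clone 1 stood below the other 4 libraries. The difference of clone 2 from clone 1 was 0.40 ± 0.10 (adjusted p = 0.0128), and Orc2 fell in clone 1 against WT by 0.40 ± 0.10 (0.00813), with -0.00 ± 0.10 in clone 2. The clone 1 call was lost without WT replicate 1 (0.134). Of the Orc2 exon bases 29.8% are shared with Nif3l1 on the opposite strand, whose own difference between the clones was -0.03 ± 0.11. Mcm2 differed by 0.27 ± 0.07 (adjusted p = 0.0205) and Gmnn by -0.34 ± 0.09 (0.0171), with the levels given above. Without clone 2 replicate 1 or clone 2 replicate 2 all 3 calls were lost, with adjusted p of 0.12 and 0.0695 for Orc2, 0.213 and 0.133 for Mcm2, and 0.226 and 0.0728 for Gmnn. Without clone 1 replicate 1 or replicate 2 the count was 5 and 6. The 20 nearest tested genes around Gmnn had a median difference between the clones of -0.37, with medians of 0.71 in clone 1 and 0.00 in clone 2 against WT, where Gmnn itself had -0.13 and -0.47. Those around Orc2 and Mcm2 had -0.13 and 0.04 between the clones. The part of the surrounding region in the Gmnn difference was not tested. Over both clones against WT, the 20 nearest genes had medians of 0.02 around Rrm2, 0.03 around E2f1, -0.08 around Orc5 and 0.02 around Pcna.

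**Figure D4:**
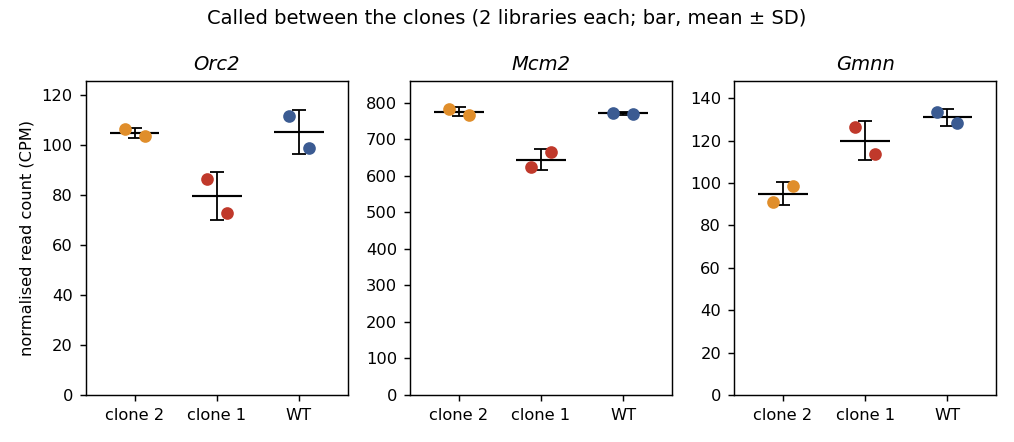
Normalised read count (CPM, y axis from 0) of the 3 genes called between the clones, with 1 point per library and bars for mean ± SD (n = 2). Orc2 and Mcm2 are lower in clone 1 than in clone 2 and WT, and Gmnn is lowest in clone 2.

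E2F factors and the factor NF-Y, which binds the letters CCAAT, are known regulators of replication genes, so the promoter windows of the set were read from RefSeq on GRCm38.p6. Each window runs from 250 bases before to 50 bases after a listed start, and 33 of the 41 genes had at least 1, for 40 windows in all. The E2F letters searched were TTTCCCGC, TTTGGCGC, TTTCGCGC and TTTGCCGC, on both strands. They occurred in 13 of 40 windows (32.5%), against 744 of 32851 windows of the whole table (2.26%). CCAAT, searched on both strands, occurred in 24 of 40 windows (60.0%), against 37.4%. The windows of the set were richer in G and C, with a median of 61.3% against 52.7%, and the part of base composition in these shares was not tested.

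Windows are shown for Rrm2 and Pcna, which fell in each clone. Orc5 also fell in each clone, but its window, not shown, holds neither the E2F letters searched nor CCAAT. The windows of Mcm5 and Mcm6, which hold overlapping E2F letters and did not pass in any comparison, are shown too. Each is printed 5′ to 3′ on the strand of the gene, with the E2F and CCAAT letters of either strand in capitals. They lie at chr12:24708004-24708303 (plus strand) for Rrm2, chr2:132253131-132253430 (minus) for Pcna, chr8:75109259-75109558 (plus) for Mcm5 and chr1:128359656-128359955 (minus) for Mcm6.
Rrm2: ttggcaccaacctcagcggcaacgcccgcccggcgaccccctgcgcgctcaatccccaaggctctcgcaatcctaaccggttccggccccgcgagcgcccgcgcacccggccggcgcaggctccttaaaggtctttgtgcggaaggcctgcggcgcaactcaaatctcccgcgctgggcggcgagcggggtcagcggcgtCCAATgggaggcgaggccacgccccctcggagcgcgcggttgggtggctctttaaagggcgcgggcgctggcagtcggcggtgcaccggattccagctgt
Pcna: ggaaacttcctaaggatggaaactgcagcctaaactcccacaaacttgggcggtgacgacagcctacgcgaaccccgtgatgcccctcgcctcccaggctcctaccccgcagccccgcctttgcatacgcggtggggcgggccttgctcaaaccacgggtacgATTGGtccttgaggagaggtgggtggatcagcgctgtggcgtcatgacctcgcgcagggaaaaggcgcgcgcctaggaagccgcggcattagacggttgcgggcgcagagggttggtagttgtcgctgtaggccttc
Mcm5: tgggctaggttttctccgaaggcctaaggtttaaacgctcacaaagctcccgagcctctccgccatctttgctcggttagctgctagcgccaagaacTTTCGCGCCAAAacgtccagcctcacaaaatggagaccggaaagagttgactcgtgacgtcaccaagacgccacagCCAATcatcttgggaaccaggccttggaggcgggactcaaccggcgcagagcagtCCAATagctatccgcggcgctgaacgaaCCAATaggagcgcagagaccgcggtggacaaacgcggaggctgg
Mcm6: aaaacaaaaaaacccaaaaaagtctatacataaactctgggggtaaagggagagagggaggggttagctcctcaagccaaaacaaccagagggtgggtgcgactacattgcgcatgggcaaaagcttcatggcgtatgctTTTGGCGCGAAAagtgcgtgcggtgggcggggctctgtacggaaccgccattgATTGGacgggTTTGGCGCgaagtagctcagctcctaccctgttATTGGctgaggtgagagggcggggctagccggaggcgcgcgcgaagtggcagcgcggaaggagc
The Rrm2 and Pcna windows each hold 1 CCAAT and none of the E2F letters searched, and the Mcm5 and Mcm6 windows hold 3 and 2 CCAAT. In Mcm5 the letters TTTCGCGC on one strand and TTTGGCGC on the other overlap, as do the same letters with the strands exchanged in Mcm6, which has a further TTTGGCGC downstream.

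The genes with E2F letters in a window were Cdc6, Cdt1, Gins3, Lig1, Mcm3, Mcm5, Mcm6, Mcm7, Orc1, Orc3, Pola1, Pold1 and Rfc3. None of these 13 was called over both clones, where 6.36% of all tested genes were. The median log2 fold change of the 13 was -0.02. Of the 20 genes with a window but without the letters, E2f1 rose and Orc5 and Rrm2 fell, with a median of -0.17. In the clone contrasts, 1 of the 13 was called in each, Cdt1 lower in clone 1 and Pola1 higher in clone 2, and of the 20 without the letters 7 were called in clone 1 (1 higher and 6 lower) and 6 in clone 2 (1 higher and 5 lower), where 21.9% and 17.9% of all tested genes were called. Not every window covers the annotated start. The RefSeq start lies 466 bases inside the annotated gene for E2f1 and, among the windows that hold the letters, 350 bases inside for Cdc6, 539 for Mcm7 and 1543 for Lig1.

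Other genes of the pathway were counted from lists by function. None of 33 tested further replication genes was called over both clones, where 6.36% of all tested genes were. The 33 genes (polymerase subunits, Cdc7 and Dbf4 kinase, fork protection and chromatin assembly factors) had a median of -0.04. In clone 1, 5 of them (15.2%) fell, namely Pole3, Dbf4, Mtbp, Chtf18 and Top2a, and none rose. Of all tested genes 21.9% were called in clone 1, 9.53% lower and 12.4% higher. In clone 2 only Timeless rose (3.03%) and none fell, where 17.9% of all tested genes were called, 10.1% higher and 7.81% lower. Between the clones 8 were higher in clone 2 and 1 was lower (27.3%). There 14.3% of all tested genes were called, 6.62% higher and 7.71% lower. Of 18 nucleotide supply genes, 5 were called in clone 1, 2 higher and 3 lower (27.8%, against 21.9% of all tested genes). In clone 2, 4 were, 2 higher and 2 lower (22.2%, against 17.9%). Over both clones 1 was called (5.56%, against 6.36%), Dut, which removes dUTP and makes the precursor of dTTP. Dut had 159 and 169 CPM in clone 1 and 156 and 155 CPM in clone 2, against 206 and 215 CPM in WT, and fell by 0.40 ± 0.08 (adjusted p = 0.0161). The call of Dut was lost without WT replicate 1 (0.159) or WT replicate 2 (0.219).

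Of 12 further E2F and RB family genes, 3 were called in each clone (25%), all higher. Of all tested genes 21.9% were called in clone 1 (12.4% higher) and 17.9% in clone 2 (10.1% higher). Over both clones 1 was called (8.33%, against 6.36%), Rbl1, the pocket protein p107 that binds repressive E2Fs. It had 42.0 and 38.0 CPM in clone 1 and 39.8 and 40.8 CPM in clone 2, against 30.4 and 28.6 CPM in WT, and rose by 0.44 ± 0.10 (adjusted p = 0.031). The call of Rbl1 was lost without clone 2 replicate 1 (0.0648), clone 2 replicate 2 (0.0659), WT replicate 1 (0.224) or WT replicate 2 (0.292). Of 14 tested regulators of the step from G1 to S, 1 rose and 1 fell (14.3%, against 6.36% of all tested genes). Cdkn2a, whose products block the cyclin D kinases and MDM2, had 20.8 and 27.5 CPM in clone 1 and 29.3 and 29.5 CPM in clone 2, against 3.39 and 2.51 CPM in WT, and rose by 3.18 ± 0.23 (adjusted p = 2.06e-04). Ccnd1, the cyclin of those kinases, had 106 and 109 CPM in clone 1 and 147 and 154 CPM in clone 2, against 196 and 197 CPM in WT, and fell by 0.61 ± 0.15 (0.0442). The call of Ccnd1 was lost without clone 1 replicate 1 (0.052), clone 1 replicate 2 (0.0678), WT replicate 1 (0.3) or WT replicate 2 (0.279). In clone 1, 7 of the 14 regulators were called, 2 higher and 5 lower (50%, against 21.9% of all tested genes), and in clone 2, 6 were, 4 higher and 2 lower (42.9%, against 17.9%). Cdkn1a, the kinase inhibitor p21, singled out after its values were seen, had 218 and 227 CPM in clone 2 and 106 and 125 CPM in clone 1, with 175 and 192 CPM in WT. It fell in clone 1 by 0.67 ± 0.09 (adjusted p = 5.97e-05) and was called higher in clone 2 at 0.27 ± 0.09 (0.0443), a call lost under 6 of 14 alternatives, among them DESeq2 (0.0731) and either clone 2 library (0.181 and 0.259) or either WT library (0.335 and 0.0995) left out. Between the clones Cdkn1a differed by 0.94 ± 0.09 (adjusted p = 3.26e-06). None of 16 genes of G2 and mitosis was called over both clones (against 6.36% of all tested genes), with a median of -0.15. In clone 1, 8 of them fell (50%, where 9.53% of all tested genes were called lower), and in clone 2, 3 fell (18.8%, against 7.81%), with none higher in either. Between the clones 5 of the 16 (31.2%) were higher in clone 2, against 6.62% of all tested genes.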

How the data were processed

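Each of 6 libraries had 1 deposited table of whole-number read counts by gene, without normalisation. Build mm10 and the tools DESeq2 1.18.1, HTSeq 0.9.1 and HISAT2 2.1.0 appear, without roles, among the submitters' processing notes. For the annotation and strand setting used in counting, the answer is not given in the sources used here. HTSeq summary entries stayed out of library sizes and tests: reads without a feature made up 4.14% to 5.35% of all reads, ambiguous reads 6.96% to 9.10%, low quality alignments 6.00% to 7.30%, multiply aligned reads 15.6% to 16.6% and unaligned reads 2.44% to 3.09%. Replicates differed by more than sampling noise (chi-square per gene 8.79 in clone 1, 3.27 in clone 2 and 3.57 in WT).

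Genes passing filterByExpr on the 3 groups (14946) were tested with edgeR 4.0.16 in R 4.3.3, using TMM scaling, two-sided quasi-likelihood F tests, with p-values adjusted by Benjamini-Hochberg over all of them (threshold 0.05). The comparison of genotypes set 4 libraries of 2 clones against 2 of WT as if libraries of a clone were independent, which can make p too small. A second fit, of 3 groups, gave the clone contrasts. Both fits were first tested on simulated data with planted changes. CPM per kilobase uses the union of GENCODE M21 exons. Alternatives were DESeq2 1.42.0, other scaling and filters, a minimum fold, a replicate block, other sample sets and each library left out. The genes, lists and tests were chosen with earlier results of these data known. Values per library are given for genes called over both clones, in both clone contrasts with one sign or between the clones, and for a set list of others, with Pole and Fen1 added after their values were seen; from other lists, the genes called over both clones are named, with Cdkn1a and Rrm2b added after their values were seen. Figures were drawn with matplotlib 3.10.9.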

Additional observations from a re-analysis of the deposited data

Results flagged for a closer look

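A library stood far from the other 3 libraries labelled knockout for 2 of the 41 genes. Gins2 had 79.9 CPM in clone 1 replicate 2, against 68.1 to 68.7 CPM in the other 3. Lig1 had 532 CPM in clone 1 replicate 1, against 515 to 517 CPM in the other 3. Chance alone puts about 1 gene in 20 past this limit.

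The effect against WT differed between the clones for 3 genes, by the contrast of clone 2 with clone 1 in edgeR. That is 7.32% of the 41 genes, where 14.3% of all tested genes differed. The log2 difference was 0.40 for Orc2, 0.27 for Mcm2 and -0.34 for Gmnn, with adjusted p of 0.0128, 0.0205 and 0.0171.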

How the results depend on the processing

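Of 24 calls of single genes over the 4 comparisons, only that of Rrm2 in clone 2 against WT held under all alternatives. With a minimum fold of 1.2, the counts of called genes were 0 over both clones, 0 in clone 1, 1 in clone 2 and 0 between the clones, against 3, 9, 9 and 3. The shares of all tested genes under each alternative are not given here, so these counts cannot be set against all genes. The mean of both clone contrasts called 13 over both clones, among them Cdt1, Gmnn, Pola1 and Pcna. A fit of the 4 libraries compared called 16 in clone 2. Leaving out 1 library gave 0 to 4 over both clones, 2 to 13 in clone 1, 2 to 16 in clone 2 and 0 to 6 between the clones. In fits that leave 1 WT library, it is assumed to vary like the other groups. DESeq2 called 4, 8, 9 and 3. Whether replicate numbers pair the samples is not given in the sources used here. Over all tested genes, replicate differences correlated weakly, at 0.13 between the clones, 0.05 between clone 1 and WT and -0.01 between clone 2 and WT. Ambiguous reads, though, were fewer in replicate 1 than in replicate 2 of each group. Their shares were 6.96% and 9.10% in clone 1, 7.62% and 8.49% in clone 2 and 8.40% and 8.73% in WT. The replicate block called 3 over both clones, 13 in clone 1, 14 in clone 2 and 5 between the clones, and ended the call of Ccnd1 over both clones (adjusted p = 0.0843). The Bcat1 log2 fold change of 0.01 turned to -0.0011 with no filter, and ranged from -0.035 to 0.028 with 1 library left out (-0.010 without WT replicate 1). Fen1 rests on 20 to 54 counts a library. The cause of these shifts was not tested.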
